A study of Mus musculus with 16 samples.

Results

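Sorl1 and 9 further genes of endosomal sorting were followed in the cortex of 5xFAD mice fed rapamycin or vehicle. The 10 genes are 5 receptors with a VPS10P domain (Sorl1, Sort1, Sorcs1, Sorcs2 and Sorcs3), the retromer subunits Vps35, Vps26a, Vps26b and Vps29, and the retromer adaptor Snx27. They were taken by name from a count table of 47593 genes, and all 10 passed the filter on low counts that left 16553 genes for testing. Sorl1 was chosen because its count was lower with rapamycin in these libraries, so its diet values below are a description with no test. The other 9 genes were chosen for their role, with earlier results of these data known.

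The data are poly(A) RNA-seq of 16 cortex libraries, 4 for each combination of sex and diet. All mice were heterozygous 5xFAD on a C57BL/6-SJL hybrid background, which carry human APP with 3 familial mutations, driven in neurons by the Thy-1 promoter. Diet started at 2 months of age and tissue was taken at 5 months. The female vehicle and male vehicle groups received standard chow with the microencapsulation carrier, and the female rapamycin and male rapamycin groups received chow with 14 ppm of active rapamycin, an inhibitor of mTOR complex 1. Controls therefore carried the 5xFAD genotype as well, and no mice without it were analysed here. The labels give 1 sample per library and do not state how many animals went into it, whereas the study's text speaks of pooled cortices, so the p values measure the spread between libraries.

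SORLA, the protein of Sorl1, binds the amyloid precursor protein and carries it from endosomes back to the Golgi, away from the compartments where amyloid-β is formed. The retromer, a trimer of VPS35, VPS29 and either VPS26A or VPS26B, coats endosomal tubules and recovers sorting receptors from degradation. SNX27 links the retromer to cargo that is recycled to the plasma membrane, and in neurons these routes carry glutamate receptors, neurotrophin receptors and the amyloid precursor protein.

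Libraries held 16393501 to 20593089 read pairs in genes. The 11 libraries of batch 1 and the 5 of batch 2, as labelled, both held each diet. The library labelled male rapamycin 4 had 512 CPM of Xist (CPM are counts scaled to 1000000 read pairs, with TMM factors) and 0 read pairs over 4 Y-linked genes. The 7 other male libraries had at most 1.01 CPM and at least 1915 pairs, and the 8 female libraries had 491 to 1302 CPM and at most 8 pairs. It was kept under its label, so the values for males and for the interaction of sex and diet include it. Diet calls of members and named list genes that changed without it are marked. In marker lists of 6 genes each, the summed level was 3986 to 5978 CPM for glutamatergic neurons and 636 to 1018 CPM for upper layer neurons. It was 30.1 to 75.1 CPM for hippocampus, 116 to 323 CPM for striatum and 418 to 1401 CPM for leptomeninges. Choroid plexus varied most, from 14.6 to 1937 CPM with vehicle and from 24.1 to 193 CPM with rapamycin. No marker was at 0 in all libraries.

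To show the sequence context of the receptor this account turns on, the 250 bases before the Sorl1 start site are given with those of Vps26b, a retromer subunit for which no diet difference was detected. Both come from RefSeq (GRCm38.p6) and lie on the minus strand, Sorl1 at chr9:42124298-42124547 and Vps26b at chr9:27030095-27030344, directly before the first exon of each gene in the count table. Capitals mark CACGTG and GGGCGG on either strand.
Sorl1: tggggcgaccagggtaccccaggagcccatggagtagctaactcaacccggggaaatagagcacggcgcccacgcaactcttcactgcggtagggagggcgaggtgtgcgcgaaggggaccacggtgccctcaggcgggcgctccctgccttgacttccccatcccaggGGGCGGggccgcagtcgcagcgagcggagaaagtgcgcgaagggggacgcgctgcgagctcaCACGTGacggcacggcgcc
Vps26b: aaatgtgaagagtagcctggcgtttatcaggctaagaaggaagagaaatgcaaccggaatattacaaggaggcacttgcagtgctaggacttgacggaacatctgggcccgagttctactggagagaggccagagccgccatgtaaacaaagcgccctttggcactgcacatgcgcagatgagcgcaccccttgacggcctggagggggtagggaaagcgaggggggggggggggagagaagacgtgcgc

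The Sorl1 window above held CACGTG at position -19 and GGGCGG at position -81, counted from the start site, and the Vps26b window held neither. RefSeq gives Sorl1 a further start site, whose window at chr9:42077164-42077463 held neither. In windows of 300 bases around 32851 mouse start sites, 7.15% held CACGTG and 35.7% held GGGCGG. TGACGTCA, present in 1.79%, and TATAAA, present in 13.6%, were in none of the windows of the 6 members with a RefSeq entry. CACGTG was found in at least 1 window of Sorl1 and Vps26a, and GGGCGG in at least 1 of Sorl1, Vps26a, Vps29, Sorcs1 and Sorcs3. These matches describe letters, not bound sites.

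Among vehicle-fed mice the members differed widely in level. Per kb of summed exon length, Sort1 was at 90.1 ± 6.19 CPM (SD, n = 8), Vps35 at 56.5 ± 9.86 CPM and Sorl1 at 42.3 ± 6.08 CPM. Vps26b (21 ± 1.66), Snx27 (20.6 ± 1.26) and Vps26a (19.7 ± 3.71 CPM per kb) followed and did not differ beyond their spread. Vps29 was at 14.3 ± 2.11, Sorcs3 at 10.9 ± 1.06, Sorcs2 at 6.64 ± 0.89 and Sorcs1 at 4.66 ± 1.20 CPM per kb. The summed exon length of Vps29 (6.15 kb) includes long alternative exons, so its place in this order depends on that length. The receptors thus spanned the whole range, with Sort1, which encodes sortilin, a receptor of progranulin and proneurotrophins, at the top and Sorcs1, which encodes a receptor that binds the amyloid precursor protein, at the bottom. The lowest count of any member in a library was 373 read pairs, for Sorcs1, and the highest was 14081, for Sort1.

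Sorl1 (chromosome 9, 41964720 to 42124297, minus strand of GRCm38) was lower in every rapamycin library than in every vehicle library. In female vehicle mice it was at 394, 456, 503 and 509 CPM, and in female rapamycin mice at 234, 245, 385 and 284 CPM. In male vehicle mice it was at 454, 531, 392 and 593 CPM, and in male rapamycin mice at 291, 243, 332 and 231 CPM. The highest rapamycin library, female rapamycin 4, lay just below the lowest vehicle library, male vehicle 3, so the diets were separated without overlap but with a narrow gap. Of all genes tested, 0.362% had all rapamycin libraries below all vehicle libraries, and Sorl1 was chosen from this contrast.

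**Figure D1:**
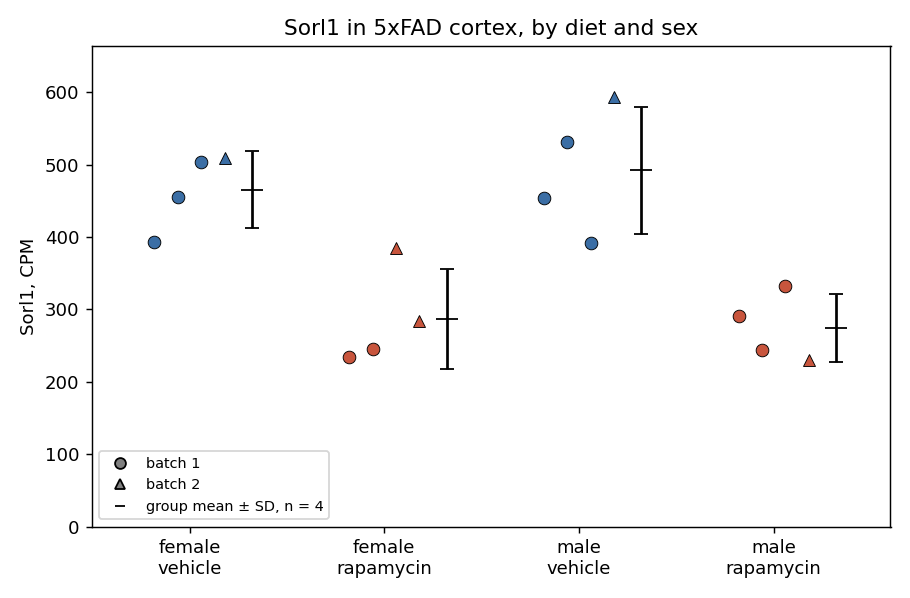
Sorl1 in CPM for each of the 16 libraries by diet and sex, with circles for batch 1, triangles for batch 2 and bars for the group mean ± SD (n = 4). The rapamycin libraries reach at most 385 CPM and the vehicle libraries start at 392 CPM.

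Sorl1 averaged 465 ± 53.5 CPM in female vehicle, 287 ± 68.8 CPM in female rapamycin, 492 ± 87.7 CPM in male vehicle and 274 ± 46.4 CPM in male rapamycin mice (SD, n = 4 each). Over both sexes the rapamycin libraries averaged 281 ± 54.8 CPM (n = 8), and 288 ± 55.0 CPM without male rapamycin 4 (n = 7). Fitted with sex and batch, the log2 fold change of rapamycin over vehicle was -0.79 ± 0.11 (SE), and by sex it was -0.76 ± 0.16 for females and -0.83 ± 0.16 for males. The mean log2 difference was -0.76 in batch 1 and -0.91 in batch 2, and leaving out 1 library at a time gave fitted values from -0.86 to -0.74. The estimates for the sexes thus lay within 1 SE of each other. The interaction of sex and diet was a log2 difference of 0.06 ± 0.23 (female minus male, edgeR's quasi-likelihood test, Benjamini-Hochberg adjusted p = 0.999), with a 95% interval from -0.44 to 0.56. In a bulk sample, fewer cells of a type and less RNA per cell cannot be told apart.

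Other measures were compared between the diets beside Sorl1. Of 6 markers of deep layer neurons, 3 fell with rapamycin (Etv1, Tle4 and Bcl11b) and 0 rose, where 6.86% of all genes fell. Their summed level was 256 to 408 CPM with vehicle and 211 to 284 CPM with rapamycin, with overlap. Of the other marker lists, glutamatergic neurons and choroid plexus each had 1 marker that fell, endothelium had 1 that rose, and the rest had 0. Microglia, in which Sorl1 is also expressed, had 0 of 6 markers that passed, and their summed level was 345 to 561 CPM with vehicle and 230 to 464 CPM with rapamycin. The part of these cell types in the Sorl1 difference was not tested.

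Exon length was the second such measure. Across all genes tested, the median log2 fold change ran from 0.30 below 1 kb to -0.19 in the 2193 genes of at least 8 kb, of which 23.8% fell and 0.638% rose. Sorl1, with 11.3 kb of exons, lay below that median, and 34 of those 2193 genes had a lower log2 fold change. With each library's length trend as a further term in the fit, the Sorl1 log2 fold change was -0.46 ± 0.13, and with length-dependent offsets it was -0.61 ± 0.08. The trend of log2 level per doubling of exon length was 0.0004 to 0.10 in vehicle libraries and -0.13 to 0.06 in rapamycin libraries, lowest in female rapamycin 1, female rapamycin 2 and male rapamycin 2. Mitochondrial transcripts took 2.64 to 5.47% of read pairs in vehicle libraries and 3.75 to 6.99% in rapamycin libraries, and were highest in the same 3 libraries (6.88 to 6.99%). The part of these measures in the difference was not tested.

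**Figure D2:**
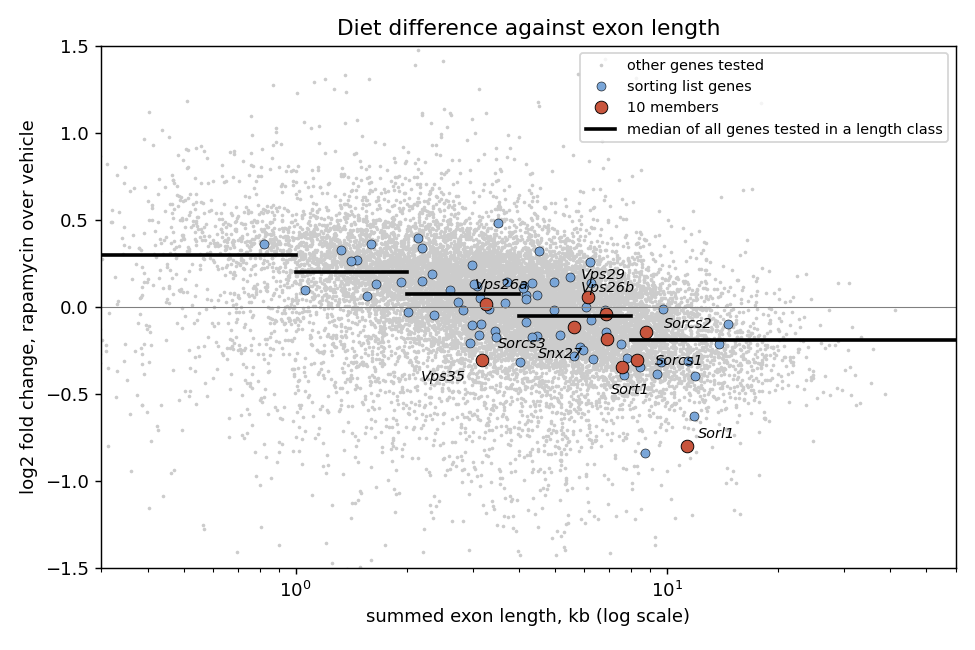
Fitted log2 fold change of rapamycin over vehicle against summed exon length in kb (log scale) for the genes tested, with the 10 members in red, the sorting list genes in blue and black lines for the median of all genes in 5 length classes. The medians run from 0.30 in the shortest class to -0.19 in the longest, and Sorl1 lies below the line of its class. 131 genes lie outside the axes.

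Of the 9 other members, 2 passed the test for diet in both sexes, Sort1 and Vps35, and both fell. Among all 16553 genes tested, 13.3% passed in either direction, 6.46% higher and 6.86% lower, and against that share 2 of 9 (22.2%) is no result about the members. The median log2 fold change of the 9 was -0.14, against 0.02 over all genes tested. None of the 9 reached a fold change of 1.5, which 2.26% of genes did together with an adjusted p below 0.05.

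Sort1 (chromosome 3, 108284082 to 108361511, plus strand) was at 688, 633, 763 and 659 CPM in female vehicle mice and at 419, 482, 547 and 539 CPM in female rapamycin mice. In males it was at 615, 685, 716 and 698 CPM with vehicle and at 636, 487, 689 and 522 CPM with rapamycin. All female rapamycin libraries lay below all female vehicle libraries, as for 3.65% of all genes, whereas male rapamycin 1 and 3 lay within the male vehicle range. The log2 fold change was -0.34 ± 0.09 (edgeR's quasi-likelihood test, adjusted p = 0.0235), from 682 ± 46.9 CPM to 540 ± 86.7 CPM. The mean log2 difference was -0.35 in batch 1 and -0.34 in batch 2. The adjusted p of Sort1 rose to 0.0621 without female rapamycin 1, and the call was also lost without female rapamycin 2 or male rapamycin 2, in batch 1 alone (0.0697), without the batch term (0.0752) and with length-dependent offsets (0.0726). Female rapamycin 1, female rapamycin 2 and male rapamycin 2 are the 3 libraries with the lowest length trend, and with that trend in the fit the Sort1 log2 fold change was -0.03 ± 0.09.

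Vps35 (chromosome 8, 85260397 to 85299513, minus strand), the scaffold of the retromer, was at 213, 178, 221 and 134 CPM in female vehicle mice and at 137, 130, 112 and 153 CPM in female rapamycin mice. In males it was at 171, 180, 200 and 141 CPM with vehicle and at 163, 130, 171 and 131 CPM with rapamycin. Vehicle 4 of each sex, the batch 2 libraries, lay within the rapamycin range. The log2 fold change was -0.30 ± 0.10 (edgeR's quasi-likelihood test, adjusted p = 0.0451), from 180 ± 31.4 CPM to 141 ± 19.7 CPM. Within batch 1 the diets did not overlap, as for 2.37% of all genes, and the mean log2 difference was -0.41, against -0.07 in batch 2. The gap within batch 1 was narrow, from 171.1 CPM in male rapamycin 3 to 171.4 CPM in male vehicle 1. The Vps35 call was close to the threshold: it held without female vehicle 4, female rapamycin 5, male rapamycin 1 or male rapamycin 3, and was lost without any 1 of the other 12 libraries, male rapamycin 4 included, with an edgeR adjusted p up to 0.112. It was also lost without the batch term (adjusted p = 0.115). Vps35 has only 3.18 kb of exons, and with length-dependent offsets its log2 fold change was -0.35 ± 0.09 (edgeR adjusted p = 0.0375). With the length trend as a further term it was -0.13 ± 0.14 and the call was lost (edgeR adjusted p = 0.954).

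**Figure D3:**
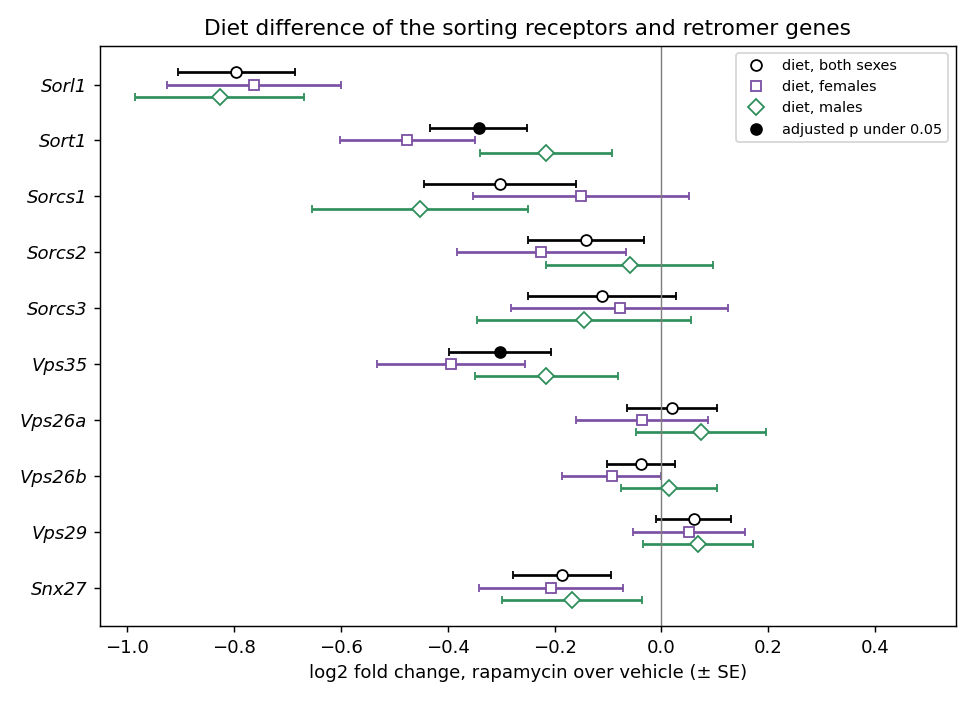
Fitted log2 fold change of rapamycin over vehicle (± SE) of the 10 members in both sexes, females and males, with filled symbols for an adjusted p below 0.05 (Sorl1 was not tested and has open symbols). Sort1 and Vps35 are the filled symbols, at -0.34 and -0.30.

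The partners of VPS35 in the retromer did not pass. For Vps26a the log2 fold change was 0.02 ± 0.08 (95% interval -0.16 to 0.20, edgeR adjusted p = 0.901) and for Vps26b -0.04 ± 0.06 (-0.18 to 0.10, adjusted p = 0.721). For Vps29 it was 0.06 ± 0.07 (-0.09 to 0.21, edgeR adjusted p = 0.603). These intervals leave out a fall as large as the Vps35 estimate, but the difference between the subunits was not itself tested. Vps29 ranged from 66.6 to 100.2 CPM with vehicle and from 66.3 to 112 CPM with rapamycin, and the diets overlapped for all 3 subunits.

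**Figure D4:**
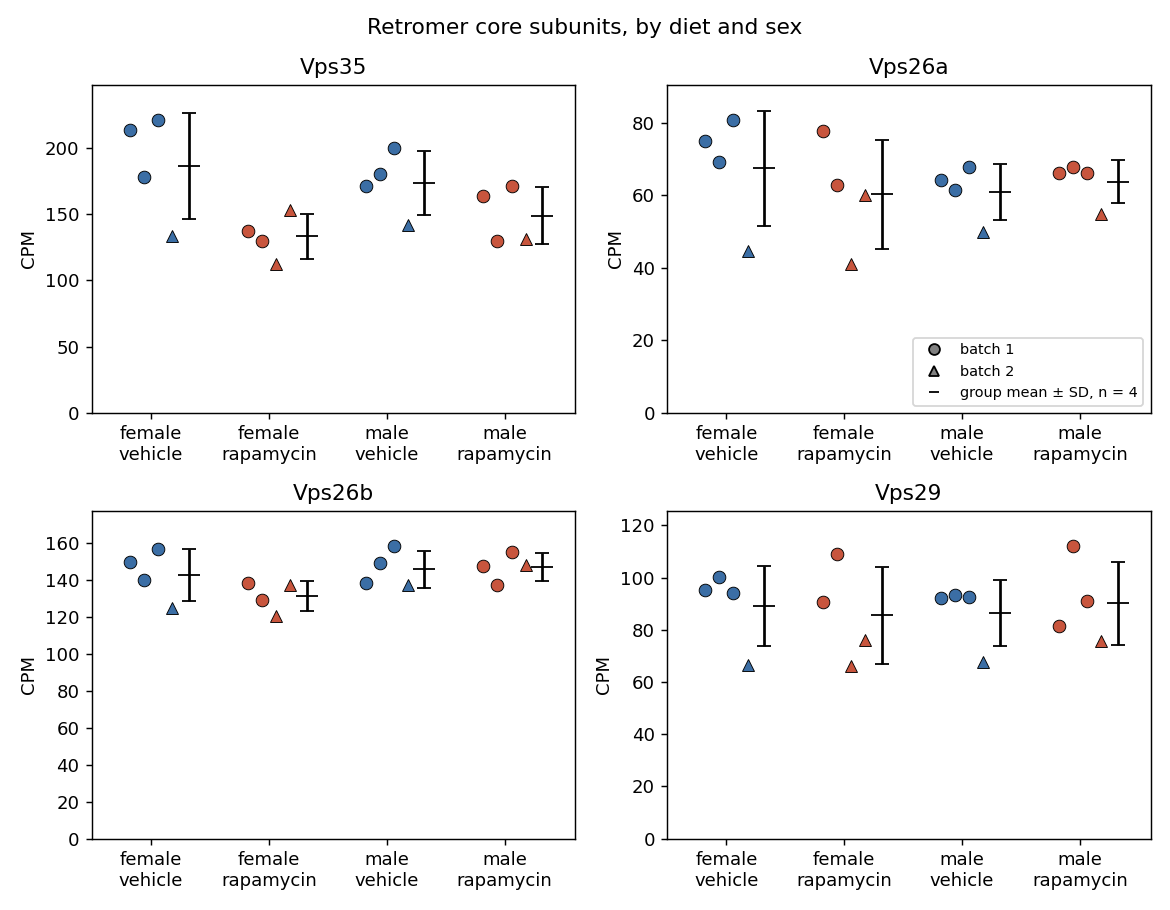
CPM of the retromer subunits Vps35, Vps26a, Vps26b and Vps29 in each library by diet and sex, with circles for batch 1, triangles for batch 2 and bars for the group mean ± SD (n = 4). Vps26a and Vps29 are lower in every batch 2 library than in any batch 1 library.

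Batch separated 2 of the retromer genes more than diet did. Vps26a was at 41.0 to 60.1 CPM in the 5 libraries of batch 2 and at 61.6 to 80.7 CPM in the 11 of batch 1. Vps29 was at 66.3 to 76.2 CPM in batch 2 and at 81.5 to 112 CPM in batch 1. Neither gene overlapped between batches, which held in this direction for 2.48% of genes tested. Vps35 was also lower in batch 2 (134 ± 14.9 CPM, n = 5) than in batch 1 (172 ± 31.4 CPM, n = 11), with overlap.

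VPS26A and VPS26B are alternative subunits of the retromer, VPS26B being the form enriched in brain, so their balance was compared as the ratio of read counts per kb of exon. The summed exon lengths were 6.87 kb for Vps26b and 3.25 kb for Vps26a. These lengths set the level of the ratio but not its log2 difference between diets. With vehicle, Vps26b over Vps26a had a median of 1.06 and a range of 0.92 to 1.32. With rapamycin the median was 1.07 and the range 0.84 to 1.39. The mean log2 ratio was 0.11 ± 0.21 with vehicle and 0.10 ± 0.23 with rapamycin (SD, n = 8 each), a difference of -0.01 (two-sided exact permutation test within batch over 4620 assignments, p = 0.933). The ratio was higher in batch 2, at 1.30 and 1.32 in its vehicle libraries, than in batch 1, where vehicle libraries ran from 0.92 to 1.15.

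Snx27 differed by -0.19 ± 0.09 on the log2 scale (edgeR adjusted p = 0.177), with 126 to 152 CPM under vehicle and 94.4 to 152 CPM under rapamycin. The 3 rapamycin libraries below the lowest vehicle library were female rapamycin 1 and 2 and male rapamycin 2. Sorcs1 had -0.30 ± 0.14 (edgeR adjusted p = 0.161), Sorcs2 -0.14 ± 0.11 (0.406) and Sorcs3 -0.11 ± 0.14 (0.625). Their diets overlapped: Sorcs1 was at 21.5 to 52.8 CPM with vehicle and 23.1 to 45.7 CPM with rapamycin. Sorcs3, a receptor of postsynaptic sites, spread over 39.1 to 85.9 CPM with rapamycin and over only 51.4 to 68.2 CPM with vehicle.

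**Figure D5:**
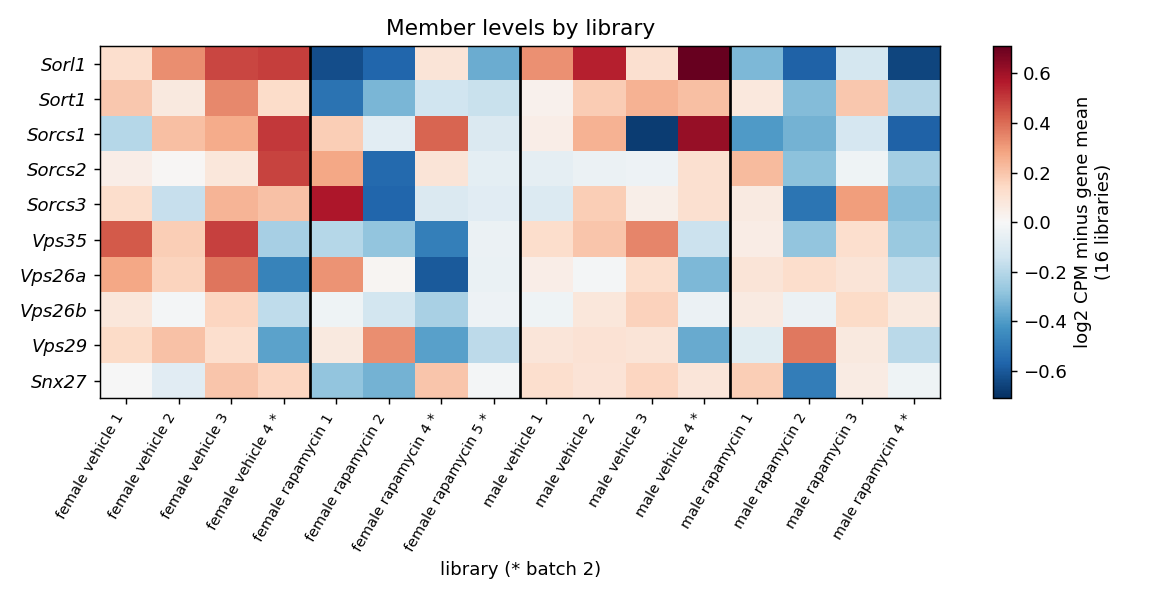
log2 CPM of each member minus its mean over the 16 libraries, with columns grouped by sex and diet and batch 2 libraries marked with an asterisk. Sorl1 is above its mean in all vehicle libraries, while Vps26a and Vps29 are below their means in all 5 libraries of batch 2.

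Within sexes the estimates were less precise. In females 0 of the 9 other members passed (edgeR), where 0.0121% of all genes did. An unadjusted p below 0.05 was found for 2 of the 9 and for 23.1% of all genes. The 2 were Sort1, at -0.48 ± 0.13 (edgeR adjusted p = 0.0709), and Vps35, at -0.39 ± 0.14 (adjusted p = 0.109). With DESeq2 1 of the 9 passed in females, Sort1 (adjusted p = 0.00945), where 10.4% of all genes passed. Sort1 also passed in females with no filter on low counts, where 5.55% of all genes did, and Sort1 and Vps35 did in batch 1 alone, where 7.75% of all genes did. Without the library labelled male rapamycin 4, Sort1 passed in females (edgeR adjusted p = 0.0486), where 349 of 16861 genes tested did. In that fit 0 genes passed in males or for the interaction. In males 0 of the 9 passed with edgeR or DESeq2, where 0% and 0.126% of all genes did. Sorcs1 was the one member with an unadjusted p below 0.05 in males, as 12% of all genes had, at -0.45 ± 0.20 (edgeR adjusted p = 0.39). The interaction of sex and diet passed for 0 of the 10 genes (0% of all genes) with both tools, with 0 unadjusted p values below 0.05 and log2 differences from -0.26 for Sort1 to 0.30 for Sorcs1 (edgeR). Female and male vehicle mice did not differ in any of the 10 genes by the test, with log2 differences of -0.08 for Sorl1 to 0.17 for Sorcs2 and edgeR adjusted p values of 0.999. In that comparison 0.0121% of all genes passed with edgeR and 0.0544% with DESeq2, and 0 of the members had an unadjusted p below 0.05 with either tool.

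Sorl1 made up less of the receptor transcripts with rapamycin, as its choice entails. Of the summed CPM per kb of the 5 VPS10P receptors, Sorl1 was 27.3 ± 2.69% with vehicle and 21.3 ± 2.31% with rapamycin (SD, n = 8 each), and Sort1 was 58.4 ± 3.21% and 61.4 ± 4.21%. Sorcs1, Sorcs2 and Sorcs3 together supplied the rest, each at most 14.7% in any library.

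The wider machinery was followed in 7 lists with 72 further genes, of which 70 were tested. In all, 15 passed for diet in both sexes, 6 up and 9 down, or 21.4% against the background of 13.3%, and the median log2 fold change was -0.01. The lists were chosen with earlier results of these data known, so this share is a description. The 6 that rose had 1.32 to 4.54 kb of exons (median 1.87 kb), and the 9 that fell had 4.03 to 11.9 kb (median 8.73 kb). The count moved with single libraries, as did that of all genes, of which 2205 passed with every library kept. Leaving out female rapamycin 1 gave 4 list genes (719 of all genes), female rapamycin 2 gave 5 (868) and male rapamycin 2 gave 6 (988). Leaving out male vehicle 4 gave 8 (1234), and female vehicle 3 or 4 gave 9 (1383 and 1540). Leaving out female rapamycin 4 or male rapamycin 3 gave 23 (3352 and 2926). With the length trend as a further term, 0 passed, as for all genes tested, of which 965 then had an unadjusted p below 0.05 (edgeR).

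Retromer regulators had 0 that rose and 4 that fell of 11, where 6.46% of all genes rose and 6.86% fell. The 4 have 5.61 to 11.9 kb of exons. Of all genes, 8.19% fell at 4 to 8 kb and 23.8% at 8 kb or more, so this count is a description. Dnajc13, an endosomal co-chaperone, fell by 0.40 on the log2 scale (SE 0.08, edgeR adjusted p = 0.0133), from 68.2 ± 8.27 to 53.1 ± 8.82 CPM. Lrrk2, a kinase that acts on Rab proteins, fell by 0.63 (SE 0.16, adjusted p = 0.021 by edgeR), from 57.6 ± 15.3 to 39.7 ± 15.7 CPM, with overlap between the diets. Tbc1d5, a GTPase-activating protein for Rab7 that binds the retromer, fell by 0.28 (SE 0.08, edgeR adjusted p = 0.0312). The last of the 4, Ankrd50, fell by 0.35 and is named outside the rule for naming genes. The Lrrk2 call was lost without female rapamycin 1 or 2 and that of Tbc1d5 without 9 of the 16 libraries in turn. That of Ankrd50 was lost without 10 of them, male rapamycin 4 included, and that of Dnajc13 held without each library in turn. All 4 calls were lost without the batch term, with the length trend as a term and with length-dependent offsets.

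The WASH complex, which nucleates actin on endosomes, had 1 gene that rose and 1 that fell of 5. For this and the next lists the background is the 6.46% of all genes that rose and the 6.86% that fell. Washc5, listed as E430025E21Rik, fell by 0.32 (SE 0.08, edgeR adjusted p = 0.018), and Washc3, listed as Ccdc53, rose by 0.32 (SE 0.10, edgeR adjusted p = 0.0411). Of 9 early endosome genes 1 fell, Pik3r4, a regulatory subunit of the kinase that makes phosphatidylinositol 3-phosphate, by 0.32 (SE 0.06, edgeR adjusted p = 0.0119). Of 9 Golgi adaptors 1 fell, Ap1g1, a subunit of the AP-1 coat, by 0.39 (SE 0.09, edgeR adjusted p = 0.0145). In 7 of the 8 rapamycin libraries Pik3r4, Ap1g1 and E430025E21Rik were each below the lowest vehicle library. These genes are named because they passed this same contrast, and the share of all genes with that pattern was not counted. The Washc5 call was lost without female rapamycin 1 and the Washc3 call without any 1 of 12 libraries, male rapamycin 4 included. Those of Pik3r4 and Ap1g1 held without each of the 16 in turn, but both were lost with the length trend as a term. The Pik3r4 call was also lost without the batch term and with length-dependent offsets. That of Washc5 was lost without the batch term and with the length trend as a term, and so was that of Washc3. The Washc3 call was further lost with no filter on low counts, with replicate number as a term in place of batch, in batch 1 alone and with length-dependent offsets.

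Among 15 tested genes of the retriever and CCC complex, which recycles cargo without the retromer, 2 rose and 0 fell. Over all genes 6.46% rose and 6.86% fell. The 2 that rose were Commd9, by 0.36 (SE 0.10, edgeR adjusted p = 0.0276), and Commd6, by 0.33 (SE 0.10, edgeR adjusted p = 0.0342), both of short exon length (1.60 and 1.32 kb). Of 7 further retromer sorting nexins 1 rose, Snx3, an adaptor that brings the retromer to membranes, by 0.27 (SE 0.08, edgeR adjusted p = 0.0385), with 1.41 kb of exons. The calls of Commd6 and Snx3 were each lost without any 1 of 10 libraries, male rapamycin 4 included, and that of Commd9 without any 1 of 7. All of these calls were lost without the batch term and with replicate number as a term in its place. They were also lost with the length trend as a term and with length-dependent offsets. Those of Commd6 and Snx3 were lost in batch 1 alone as well.

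Ligands and cargo had 2 genes that rose and 2 that fell of 14 tested, where 6.46% of all genes rose and 6.86% fell. Apoe, a lipoprotein ligand of SORLA, rose from 1271 ± 205 to 1650 ± 227 CPM, which is 0.40 ± 0.11 on the log2 scale (edgeR adjusted p = 0.0256). Slc2a1, the glucose transporter GLUT1 that SNX27 and the retromer recycle, rose by 0.49 (SE 0.14, edgeR adjusted p = 0.0295), with a mean log2 difference of 0.73 in batch 1 and -0.05 in batch 2. Atp7a, a copper transporter, fell by 0.84 (SE 0.21, edgeR adjusted p = 0.0208), from 6.08 ± 2.58 to 3.86 ± 2.21 CPM. Igf2r, the mannose 6-phosphate receptor that the retromer returns to the Golgi, fell by 0.38 (SE 0.10, edgeR adjusted p = 0.0244). Without female rapamycin 2 or male rapamycin 2 the Apoe, Slc2a1 and Igf2r calls were lost, and without female rapamycin 1 those of Apoe, Slc2a1 and Atp7a. The Apoe and Igf2r calls were also lost without male vehicle 4, and the Slc2a1 call without female vehicle 3 or male vehicle 3. Each of the calls of Apoe, Slc2a1, Atp7a and Igf2r was lost without the batch term and with the length trend as a term. With that trend the Atp7a log2 fold change was -0.07 ± 0.19. Length-dependent offsets removed the calls of Apoe, Slc2a1 and Igf2r, and batch 1 alone those of Apoe and Igf2r.

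The genes whose level was most like that of Sorl1 were named over 14689 genes of at least 1 CPM on average. Over the 16 libraries, which share diet, batch and length trend, Pearson's r of log2 CPM with Sorl1 was 0.96 for Magi2, a synaptic scaffold, 0.96 for Nos1ap, an adaptor of neuronal nitric oxide synthase, 0.94 for Kif5c, a kinesin heavy chain, 0.93 for Sntg1, a syntrophin, and 0.93 for Akap6, an anchor of protein kinase A. All 5 have over 7 kb of exons. After removal of sex, batch and diet, the highest r were 0.93 for Pigb, an enzyme of glycolipid anchors, 0.93 for Nos1ap, 0.91 for Lrrk2, 0.90 for Ralgapa2, a subunit of a Ral GTPase-activating complex, and 0.90 for Ryr2, a calcium channel of intracellular stores. Their exons span 7.25 to 18.4 kb. These correlations are descriptions.

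Among the members, Sort1 had the highest r with Sorl1 before that removal (0.80) and Sorcs1 after it (0.74). After the removal r was 0.90 for Vps35 with Vps26b, 0.75 for Vps26a with Vps26b and 0.64 for Vps35 with Vps26a. The fourth subunit, Vps29, had an r of -0.17 with Vps35, 0.21 with Vps26a and -0.07 with Vps26b, and r of Sorl1 was -0.02 with Vps35 and -0.48 with Vps26a. Sorcs2 and Sorcs3 had an r of 0.81, and Vps29 had -0.84 with Sorcs2. The same residuals had an r with the residual length trend of 0.87 for Snx27, 0.84 for Sort1, 0.73 for Sorl1 and -0.70 for Vps29 over the 16 libraries, and the part of that trend in these correlations was not tested.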

How the data were processed

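Cortical poly(A) RNA was sequenced by the authors as 150-base read pairs. Per the submitters' processing notes and the study's methods, reads were checked with FastQC 0.11.9, trimmed with Trimmomatic 0.39 (first 10 bases removed), aligned to GRCm38 with HISAT2 2.2.1 and counted per Ensembl gene with featureCounts 2.0.3; whether counting used strand is not given in the sources used here. The deposited values are raw read counts per gene, and tables by group, which the authors deposited beside them, were not used. Without a strand setting, reads of a gene and of an overlapping antisense gene cannot be told apart.

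Counts were scaled with TMM factors and tested in R 4.3.3 with edgeR 4.0.16 (quasi-likelihood test, filterByExpr minimum count 10, Benjamini-Hochberg adjustment over 16553 genes, adjusted p below 0.05, terms sex, batch and diet, or the 4 groups and batch). Error bars on log2 fold changes are standard errors, and 95% intervals used Student's t with the residual degrees of freedom. CPM uses the TMM factors, log2 CPM has a prior count of 2, and CPM per kb divides by the summed exon length of the count table, which for Vps29 includes long alternative exons. On simulated counts 141 of 200 changed genes were recovered with 8 false calls among 16553 genes. The simulation had no batch, sex or exon length effect, so these figures do not cover errors that such effects bring. DESeq2 1.42.0 was an alternative test. Named genes were the 10 members, the genes of each list that passed (at most 3 up and 3 down), and the 5 genes most like Sorl1 by each measure. Members and lists were chosen with earlier results of these data known. Sequences are from RefSeq, and 6 of the 10 members had an entry. Replicate libraries differed well beyond sampling noise (chi-square per degree of freedom 11.5 to 128 over 24 pairs). One detail of the mouse model is not reported here. No source used here says that replicate numbers mark shared animals. Python 3.11.15, NumPy 2.4.6, SciPy 1.17.1 and matplotlib 3.10.9 were used.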

Additional observations from a re-analysis of the deposited data

Results flagged for a closer look

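Among the 40 checks of 10 members in 4 groups, 4 groups held a library far from the 3 others by Dixon's test, where chance gives about 1 in 20. Sorcs2 was at 76.9 CPM in female vehicle 4 and at 59.7 CPM in male vehicle 4, each the highest of its group. Vps29 was at 67.6 CPM in male vehicle 4, the lowest of its group, and Vps26a was at 54.9 CPM in the library labelled male rapamycin 4, also the lowest. Each of these libraries is the one of batch 2 in its group.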

How the results depend on the processing

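DESeq2 size factors and DESeq2 itself left the direction and side of the threshold as reported for the 9 members and for the list genes that the report names (diet in both sexes). Of the 9 members other than Sorl1, the number that passed was 0 without the batch term, 1 in batch 1 alone, 0 with the exon length trend as a term, 1 with exon length offsets, and 0 to 2 when 1 library was left out. Of the sorting list genes, 1, 9, 0 and 4 passed under the same settings, and 4 to 23 with 1 library left out. Of all genes tested, 142, 1240, 0 and 828 passed under these settings, and 719 to 3352 with 1 library left out. In females 1 member passed with no filter on low counts (5.55% of all genes), 1 with DESeq2 (10.4%) and 2 in batch 1 alone (7.75%). With 1 library left out, 0 to 1 passed in females, where 1 to 2104 of all genes did. The Sorl1 log2 fold change moved to -0.46 with the length trend as a term. The causes of these changes were not tested.

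Directions of members that had not passed turned with the length trend as a term for Sorcs2 (0.070), Sorcs3 (0.14), Vps26a (-0.054), Vps26b (0.019), Vps29 (-0.13) and Snx27 (0.14), and with length offsets for Sorcs2 (0.0075), Vps26a (-0.026) and Vps26b (0.068). The Ankrd50 value, which had passed, turned to 0.035 with the length trend as a term. Vps26a was also at -0.046 without the batch term, -0.015 in batch 1 alone, and -0.017 to 0.062 with 1 library left out. The Vps26b to Vps26a log2 ratio differed by -0.061 to 0.043 between diets with 1 library left out. Of the 5 genes most like Sorl1, 2 stayed among the top 5 by Spearman and 2 in batch 1 alone, and of those after removal of diet, sex and batch 3 stayed by Spearman.

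After removal of sex, batch and diet, 6 of 21 pairs of libraries with the same replicate number had a correlation over 0.1. The range was -0.39 to 0.33, and the pairs of replicate 2 were all positive (0.016 to 0.33). All libraries of replicate 4 are in batch 2, so a deviation they share cannot be told apart from batch. As deviations from group means, before that removal, their pairs had r of 0.35 to 0.67. With a replicate block in place of batch, 1298 genes passed, 2 of the 9 members and 11 of the sorting list genes passed, and Vps26a was at -0.0072. The paired differences of the Vps26b to Vps26a ratio under the replicate block averaged -0.042 (exact sign-flip permutation over 7 pairs, p = 0.453).

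Each group holds 4 libraries, so differences within a sex were measured with SEs of 0.09 to 0.20 on the log2 scale for the 9 members.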
